A study of Rattus norvegicus with 10 samples.

Results

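The core clock loop was described in white adipose tissue of rats through 8 genes: the activator genes Bmal1, Npas2 and Clock, and the repressor genes Cry1, Cry2, Per1, Per2 and Per3, out of 14217 genes named on the array. The members were taken as every array probe set annotated to exactly 1 of these gene symbols, which gave 14 probe sets of the 31042 tested. The genes were chosen on their noodle minus control differences, seen in an earlier look at the same arrays that also showed how Bmal1 varied among the noodle animals, so those differences are given below as a description and support nothing by themselves. A probe set is a group of array probes against 1 transcript, and its level is the deposited value on what was taken as a log2 scale.

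RNA was measured on 1 array for each of 10 male rats, aged 13 weeks and kept under 12 hours of light and 12 hours of dark. The noodle group (5 animals, numbered 1, 4, 7, 10 and 13) ate a diet of which 30% by weight was instant noodle and in which fat supplied 26% of the energy. The control group (5 animals, numbered 2, 5, 8, 11 and 14) is labelled as given this diet with the seasonings left out. Animals were pair-fed, with a daily ration near 60 g for each kg of body weight, for 30 days in one label and 4 weeks in another. The sources used here give no strain, no fat depot and no time of day for the tissue collection.

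The clock is a loop of transcription and repression that runs in most cells, fat cells among them. BMAL1 pairs with CLOCK or with its relative NPAS2 and switches on genes that carry E-box sequences, including the Per and Cry genes, and the PER and CRY proteins then block that pair. A second loop acts on Bmal1 itself through RORE sequences, which the REV-ERB proteins (Nr1d1 and Nr1d2) repress and the ROR proteins activate, and D-box sequences are bound by DBP and its relatives as activators and by NFIL3 as a repressor. In rodent tissues the Bmal1 and Npas2 transcripts peak at about the opposite time of day to the Per transcripts, and Cry1 peaks later than the Per genes.

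The promoter sequences of the members were searched for such elements, and matches in 2 of them, Bmal1 and Per2, are printed below. The sequences come from RefSeq on build GRCr8, which had entries for 7 of the 8 genes (all but Cry1). In each, the 250 bases before the annotated start were searched on both strands for the E-box CACGTG, the related E'-box CACGTT, the D-box TTATGTAA and the RORE. The 30 bases around 3 of the matches follow, 5′ to 3′ on the strand of the gene, with the match in capitals.

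Bmal1, RORE: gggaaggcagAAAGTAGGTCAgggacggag

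Per2, E'-box: aacgcgcgcggtCACGTTttccactatgtg

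Per2, D-box: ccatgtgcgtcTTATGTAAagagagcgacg

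The Bmal1 stretch lies at chr1:176766298-176766327 on the plus strand, with the RORE beginning 20 bases before the start. The Per2 stretches lie at chr9:99497038-99497067 and chr9:99497167-99497196 on the minus strand, and their matches begin 62 and 192 bases before the start. Cry2 held an E'-box on the opposite strand, and the windows of Npas2, Clock, Per1 and Per3 held none of these letters. No match overlapped another. Of 33469 promoter windows of the same length, 0.317% held a RORE, 0.828% a D-box, 4.07% an E'-box and 5.59% an E-box. A match is a run of letters and was not tested as a binding site.

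Of the 14 member probe sets, 6 varied between arrays and 8 were flat, meaning an SD of 0.01 or less over the 10 arrays. Each of Bmal1, Npas2, Cry1, Per1, Per2 and Per3 had 1 variable probe set, with SDs from 0.23 to 0.49. Clock (4 probe sets) and Cry2 (2) had flat ones only, and Per2 and Per3 had 1 flat probe set each beside the variable one. Over the whole array 8.4% of probe sets were variable. Array medians lay between 6.17 and 6.18, and array pairs correlated at 0.993 to 0.998.

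The tissue label and the cell makeup were checked by marker lists. All 9 measured adipocyte markers lay above the array median, with a mean of 11.8 to 11.9 in every animal. Of 9 brain markers, looked at because the extraction text in the labels names a brain sample, 2 lay above it, and their mean was 6.04 to 6.13. Macrophage markers (8 of 8 measured) averaged 8.17 to 8.72 in noodle animals and 7.97 to 8.60 in controls. Mesothelial markers (6 of 7) averaged 6.41 to 7.15 and 6.33 to 7.72, red blood cell markers (5 of 5) 7.88 to 8.14 and 8.02 to 8.35, and endothelial markers (5 of 6) 8.27 to 8.58 and 8.30 to 8.56. Skeletal muscle (4 of 5) and lymphocyte markers (4 of 5) were all flat. The part of these cell types in the clock values was not tested, and in whole tissue fewer cells of a type cannot be told apart from less RNA per cell.

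Among the activators, Bmal1 stood higher in every noodle animal than in any control. In the loop as outlined above, the BMAL1 protein is the partner of both CLOCK and NPAS2. The Bmal1 level was 7.22, 7.06, 7.14, 6.32 and 6.36 in noodle animals 1, 4, 7, 10 and 13. It was 6.13, 6.09, 5.95, 6.21 and 6.01 in control animals 2, 5, 8, 11 and 14. The groups did not overlap, by a gap of 0.10, and animals 1, 4 and 7 stood far above animals 10 and 13. The noodle mean was 6.82 ± 0.44 and the control mean 6.08 ± 0.10 (SD, n = 5 each), a difference of 0.74 ± 0.20 (SE) or 1.67-fold.

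Npas2 encodes the CLOCK relative that can take its place beside BMAL1. It stood at 7.33, 7.26, 7.68, 6.92 and 7.16 in noodle animals 1, 4, 7, 10 and 13, and at 6.38, 6.46, 6.57, 6.94 and 6.67 in controls 2, 5, 8, 11 and 14. The groups overlapped by 1 animal on each side: noodle animal 10 was just under control animal 11. Noodle animal 7 was the highest here, while animal 1 was the highest for Bmal1. The difference was 0.67 ± 0.15 (SE, n = 5 per group), or 1.59-fold.

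Clock itself could be read only from flat probe sets, whose values span about a thousandth of a log2 unit. In 2 of the 4 Clock probe sets, 1380098_at and 1389456_at, every noodle animal was above every control animal. For the first, the distance from its mean over all arrays (6.76) was 0.31, 0.26, 0.39, -0.04 and 0.16 thousandths in noodle animals 1, 4, 7, 10 and 13, and -0.15, -0.21, -0.37, -0.25 and -0.10 in controls 2, 5, 8, 11 and 14. Noodle animal 10 was the lowest of its group here, as it was for Bmal1, but in 1389456_at noodle animal 4 was the lowest. The probe sets 1390199_at and 1369168_a_at, at mean levels of 8.57 and 5.51, overlapped between the groups.

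Repressor genes did not all stand on the same side. Cry1, which encodes the cryptochrome that acts late in the cycle, was higher in every noodle animal than in any control, like the activators. It stood at 6.76, 6.60, 6.68, 6.30 and 6.29 in noodle animals 1, 4, 7, 10 and 13, and at 6.20, 6.19, 6.20, 6.14 and 6.20 in controls 2, 5, 8, 11 and 14. The controls were nearly level, with an SD of 0.026, and noodle animals 10 and 13 stood only slightly above them. The difference was 0.34 ± 0.09 (SE, n = 5 per group), or 1.26-fold.

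The 3 period genes, whose proteins enter the repressing complex, were lower on average in the noodle group. Per3 stood at 6.50, 7.13, 6.80, 7.58 and 7.33 in noodle animals 1, 4, 7, 10 and 13, and at 7.69, 7.69, 7.59, 7.55 and 7.71 in controls 2, 5, 8, 11 and 14. Noodle animal 10 alone lay inside the control range, and animal 1 was the lowest of all 10. The Per3 difference was -0.58 ± 0.19 (SE, n = 5 per group), or 1.50-fold.

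Per2 stood at 6.92, 7.21, 7.07, 7.49 and 7.54 in noodle animals 1, 4, 7, 10 and 13, and at 7.93, 7.41, 7.90, 7.41 and 7.89 in controls 2, 5, 8, 11 and 14. The controls split into 3 high animals and 2 low ones, and noodle animals 10 and 13 lay between these. The Per2 difference was -0.46 ± 0.16 (SE, n = 5 per group), or 1.38-fold. Its E'-box and D-box are printed above.

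Per1, the period gene that also responds quickly to hormones and other signals, overlapped between the diets. It stood at 6.56, 7.04, 6.50, 7.41 and 7.37 in noodle animals 1, 4, 7, 10 and 13, and at 7.31, 7.37, 7.22, 7.06 and 7.41 in controls 2, 5, 8, 11 and 14. Noodle animals 10 and 13 were among the highest of all 10 animals, and animals 1 and 7 were the lowest. The Per1 difference was -0.30 ± 0.20 (SE, n = 5 per group), or 1.23-fold. It came to -0.18 when noodle animal 7 was left out, to -0.20 when noodle animal 1 was, and to -0.14 with estimated array weights.

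**Figure D1:**
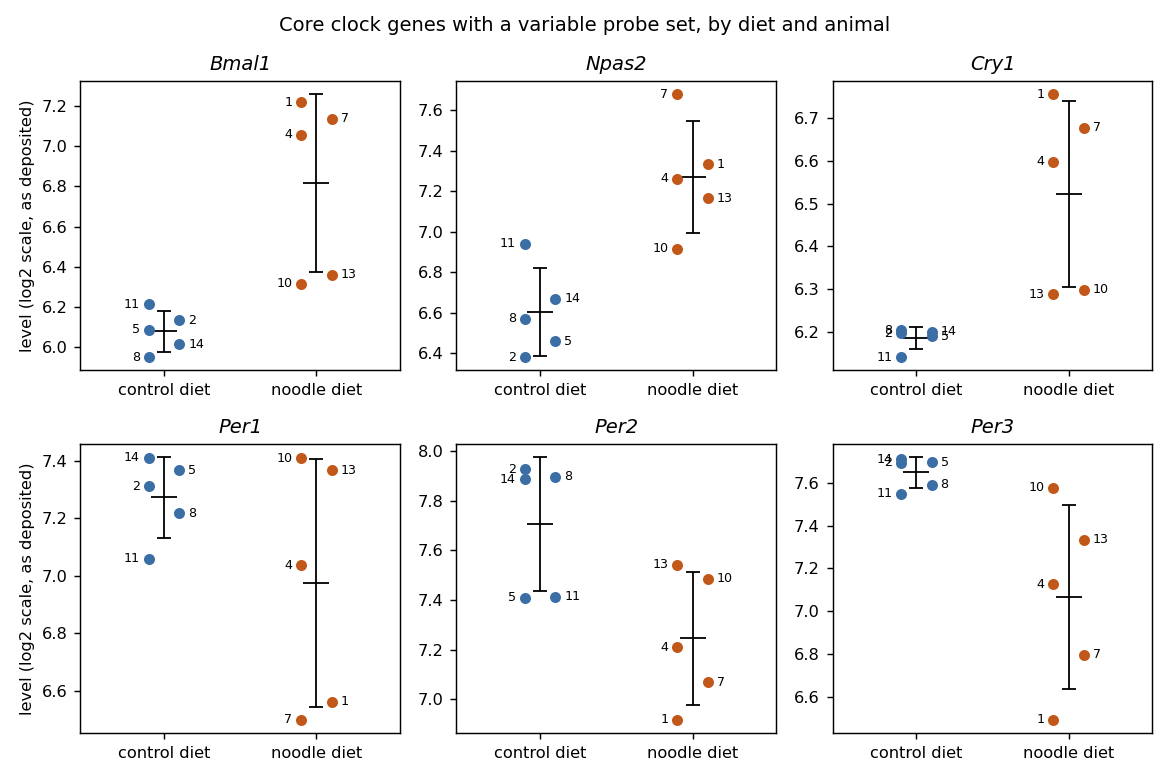
Level on the deposited log2 scale of the 6 variable core clock probe sets in each of the 10 animals (points, labelled with the animal number), with the mean and SD of each diet (black bars; n = 5 each). For Bmal1 and Cry1 all noodle animals lie above all controls, and noodle animals 10 and 13 lie nearest to the controls.

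No member passed the threshold over the whole array. With limma, 0 of the 14 member probe sets reached an adjusted p of 0.05, as did 0% of all 31042. The adjusted p was 0.974 for Bmal1, 0.96 for Npas2 and 0.993 for Cry1, Per1, Per2 and Per3. At an unadjusted p under 0.05 there were 8 of the 14, among 4.77% of all probe sets. Non-overlap with the noodle group higher was seen in 2 of the 6 variable members and in 0.345% of all 2607 variable probe sets, and with the noodle group lower in 0 of the 6 and in 0.614%. Among flat probe sets it was 2 of 8 members, both of Clock, and 0.387% of 28435 with the noodle group higher. Since the genes were chosen from this contrast, nothing is read from these counts. The median absolute difference was 0.52 over the 6 variable members and 0.088 over all variable probe sets.

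The noodle animals were far from alike in these genes. Animals 1, 4 and 7 lay outside the control range in 6 of 6 variable genes, animal 13 in 4 and animal 10 in 2. The same count was not made over all variable probe sets, and the genes were chosen from this contrast. Nothing is therefore read from these counts. The SD of the noodle group over that of the controls was 8.43 for Cry1, 5.89 for Per3, 4.32 for Bmal1, 3.07 for Per1, 1.27 for Npas2 and 0.99 for Per2. The median of this ratio over all variable probe sets was 0.83. It was higher than in Cry1 in 0% of them, than in Per3 in 0.115%, than in Bmal1 in 0.422% and than in Per1 in 1.23%. The control means of Cry1 (6.19) and Bmal1 (6.08) lay close to the array medians of 6.17 to 6.18, and those of Per3 (7.65) and Per1 (7.27) well above. The ratio was not tested, nor was the part of signal level in it.

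The array measure of RNA quality differed between the diets too. This is the mean 3-prime minus 5-prime difference of the control probe sets for Actb and Gapdh. It was 0.82, 0.89, 0.80, 0.93 and 0.75 in noodle animals 1, 4, 7, 10 and 13, and 0.96, 1.06, 0.95, 0.96 and 0.82 in controls 2, 5, 8, 11 and 14 (exact permutation p = 0.0476, two-sided). Noodle animals 10 and 13 held the highest and the lowest value of their group. The part of RNA quality in the clock values was not tested. With this measure in the fit Bmal1 differed by 0.73 ± 0.27, Npas2 by 0.51 ± 0.19, Cry1 by 0.32 ± 0.13, Per1 by -0.24 ± 0.27, Per3 by -0.48 ± 0.25 and Per2 by -0.58 ± 0.22 (SE).

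Whether activators and repressors moved together from animal to animal was asked apart from the diets. Each value was taken as its deviation from the mean of its own diet, and the 15 pairs of the 6 variable genes were correlated over the 10 animals. Deviations were not scaled by diet. The noodle SD was 8.43 times that of the controls for Cry1, 5.89 for Per3 and 4.32 for Bmal1. For these genes r is therefore drawn mostly from the 5 noodle animals. All pairs of Bmal1 or Npas2 with a Per gene were negative, at r from -0.89 to -0.58 over 6 pairs. All 3 pairs among the Per genes were positive, at 0.72 for Per1 and Per2, 0.93 for Per1 and Per3 and 0.70 for Per2 and Per3. Cry1 went with the activators, at 0.94 with Bmal1 and 0.53 with Npas2, and against the Per genes, at -0.86 with Per1, -0.63 with Per2 and -0.90 with Per3.

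Of these 15 pairs, 3 passed after Benjamini-Hochberg adjustment of two-sided exact permutation tests over the 14400 rearrangements of animals within diets. The count was 14 with the animal number and 11 with the 3-prime minus 5-prime difference as a covariate, for which the permutation is approximate. That noodle animals 10 and 13 had a low Bmal1 for their diet was known when these pairs were set up, so the p-values are no independent support. Per1 and Per3 gave r = 0.93 (exact p = 0.00299, adjusted p = 0.025) and Spearman's rho = 0.98 (adjusted p = 0.00521). Npas2 and Per1 gave r = -0.78 (exact p = 0.00333, adjusted p = 0.025) and rho = -0.66 (adjusted p = 0.154). Bmal1 and Per2 gave r = -0.75 (exact p = 0.00931, adjusted p = 0.0465) and rho = -0.77 (adjusted p = 0.154). Larger r did not always mean smaller p: Bmal1 and Cry1, at r = 0.94 and rho = 0.76, had an exact p of 0.0386 (adjusted p = 0.07).

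How far the correlations held without single animals was looked at next. Without the 2 animals whose first gene deviated most, all 15 pairs kept their sign and 2 had an exact p under 0.05, Per1 with Per3 (r = 0.86, exact p = 0.00139, without noodle animals 1 and 7) and Per2 with Per3 (r = 0.72, exact p = 0.0278). For Bmal1 these animals were noodle 10 and 13, and r was then -0.66 with Per2 (exact p = 0.114), -0.53 with Per3 (exact p = 0.108), -0.56 with Per1 (exact p = 0.157) and 0.14 with Cry1 (exact p = 0.744). Npas2 with Per1 stood at -0.63 (exact p = 0.21) without noodle animal 7 and control animal 11. For Bmal1 with Cry1, r was still 0.90 without noodle animal 10 alone and 0.90 without noodle animal 13 alone. With both left out, noodle animals 1, 7 and 4 still ranked in this order for both genes. In the controls, animal 11 had the highest Bmal1 and the lowest Cry1, and animal 8 the lowest Bmal1 and the highest Cry1. The count of 3 passing pairs was 0 when any one of noodle animals 4, 10 and 13 or control animal 11 was left out, 1 on leaving out noodle animal 7 and 5 on leaving out control animal 5. With 1 animal left out at a time, r itself lay between 0.91 and 0.96 for Per1 with Per3, between -0.83 and -0.67 for Bmal1 with Per2 and between -0.85 and -0.65 for Npas2 with Per1.

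**Figure D2:**
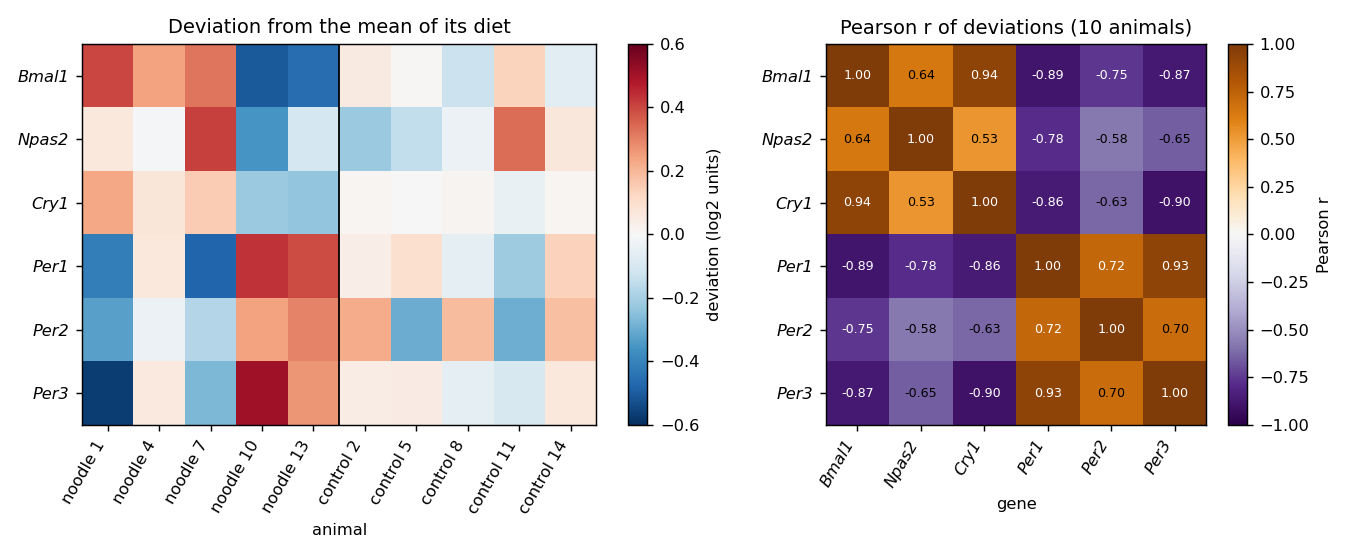
Left: deviation of each animal (columns) from the mean of its diet for the 6 variable core clock genes (rows), in log2 units; the line parts noodle from control animals. Right: Pearson r of these deviations over 10 animals. In this r Bmal1, Npas2 and Cry1 go together and against the 3 Per genes, from 0.94 for Bmal1 with Cry1 to -0.90 for Cry1 with Per3. Deviations are not scaled by diet, and for all genes but Per2 the noodle animals spread more than the controls and so weigh more.

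In 1 control animal Cry1 did not go with the activators, though by a small distance. In control animal 11 the activators were the highest of the 5 controls (Bmal1 6.21 and Npas2 6.94), Per1 (7.06) and Per3 (7.55) were the lowest, and Per2 (7.41) was next to the lowest. Noodle animals 1, 4 and 7 likewise held the highest Bmal1 and Npas2 and the lowest Per levels of their diet, together with the highest Cry1, whereas Cry1 in control animal 11, at 6.14, was the lowest of the controls. The other controls had Cry1 at 6.19 to 6.20, and the range of all 5 was only 0.063 log2 units. A group of 5 is too small for a correlation of its own, so the controls are given by these values and nothing is concluded from the 1 animal.

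The flat probe sets were set beside the variable ones. The flat Per3 probe set 1388239_at stood at -0.92, -0.85, -0.79, 0.48 and 0.43 thousandths from its mean in noodle animals 1, 4, 7, 10 and 13, and at 0.33, 0.36, 0.75, -0.01 and 0.22 in controls 2, 5, 8, 11 and 14. Noodle animals 1, 4 and 7 were thus apart from the other 7 animals. They were also the lowest in the variable Per3 probe set, where noodle animal 13 (7.33) too lay below all controls. The flat and the variable Per3 probe set correlated at 0.85 over the 10 arrays and 0.78 for deviations within diet. The flat Per2 probe set did not follow its variable partner, at -0.06 and -0.12. The Clock probe set 1380098_at correlated with Bmal1 at 0.92 and 0.76, and the Cry2 probe set 1372548_at at -0.76 and -0.64. The remaining probe sets of these genes were weaker within diet. Clock stood at 0.75 and 0.42 (1389456_at), 0.72 and 0.33 (1390199_at) and 0.22 and 0.16 (1369168_a_at), and Cry2 at -0.34 and -0.32 (1369446_at). These are descriptions over 10 points that share arrays, on the values as deposited only. The flat probe sets span 0.00054 to 0.0017 log2 units, while array medians ran from 6.175 to 6.182. No tie of Clock or Cry2 to Bmal1 is therefore read from these correlations.

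Signs of flat probe sets depend on the scaling. Quantile normalization moved the median difference of all probe sets to 0.00124 and centring of the arrays to 0.00166, more than the largest flat member difference as deposited (-0.00066, for Per3). Under both, all 8 flat members came out higher in the noodle group and 0 of them were free of overlap. No direction is therefore drawn for Clock or Cry2.

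**Figure D3:**
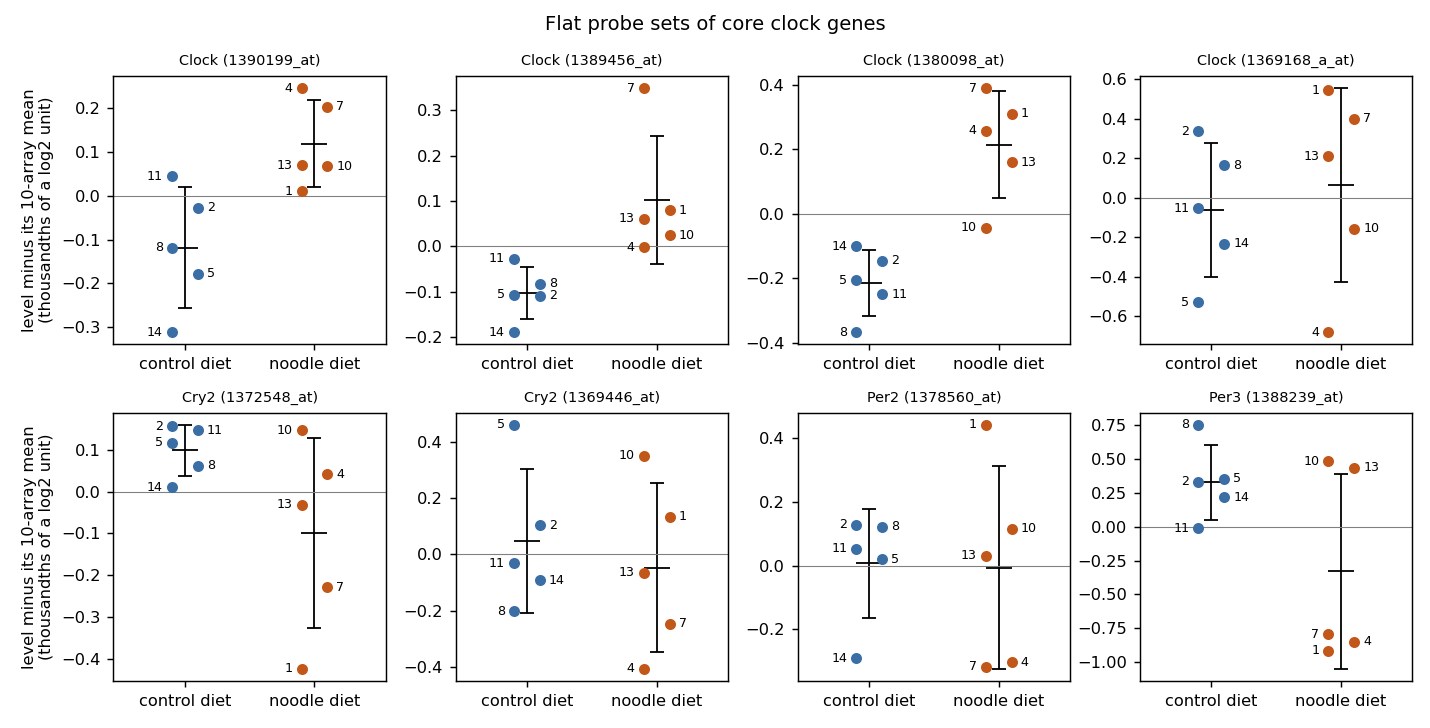
Level of the 8 flat member probe sets minus the mean of that probe set over 10 arrays, in thousandths of a log2 unit, by diet and animal (points, labelled with the animal number; black bars are mean and SD, n = 5 each). The groups are apart in the Clock probe sets 1389456_at and 1380098_at, and in the Per3 probe set noodle animals 1, 4 and 7 lie between -0.92 and -0.79 thousandths.

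The rest of the clock pathway was read from a list of 25 further genes, of which 20 were measured and 10 were variable. In limma, 0 of the 20 passed over all probe sets in either direction, and 3 had an unadjusted p under 0.05. Of the 10 variable genes, 1 was higher and 9 lower in the noodle group, with a median difference of -0.34, against -0.012 over all variable probe sets, of which 1162 were higher and 1445 lower. Rora, Gsk3b and Nampt, genes that tie the loop to nuclear receptors, phosphorylation and NAD supply, differed by -0.007, -0.025 and -0.032.

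The 6 with the smallest p were set beside Bmal1 animal by animal. Dbp, a D-box activator and direct target of the activating pair, stood at 6.34, 7.03, 6.71, 8.32 and 8.29 in noodle animals 1, 4, 7, 10 and 13 and at 8.26, 8.70, 8.85, 8.01 and 8.73 in controls 2, 5, 8, 11 and 14. Noodle animals 1, 4 and 7 lay more than 1 unit below every other noodle animal, while 10 and 13 lay among the controls. The D-box activator Tef (-0.46 ± 0.20, SE), the repressors of Bmal1 Nr1d1 (-0.66 ± 0.31) and Nr1d2 (-0.45 ± 0.18) and the E-box repressor Bhlhe41 (-0.67 ± 0.30) were lowest in the same animals, in each case below all controls in 3 of 5. Nfil3, the D-box repressor, was above all controls in those 3 animals, at 6.91, 6.91 and 7.11 against 5.99 to 6.56 in controls, and at 6.24 and 6.39 in animals 10 and 13.

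**Figure D4:**
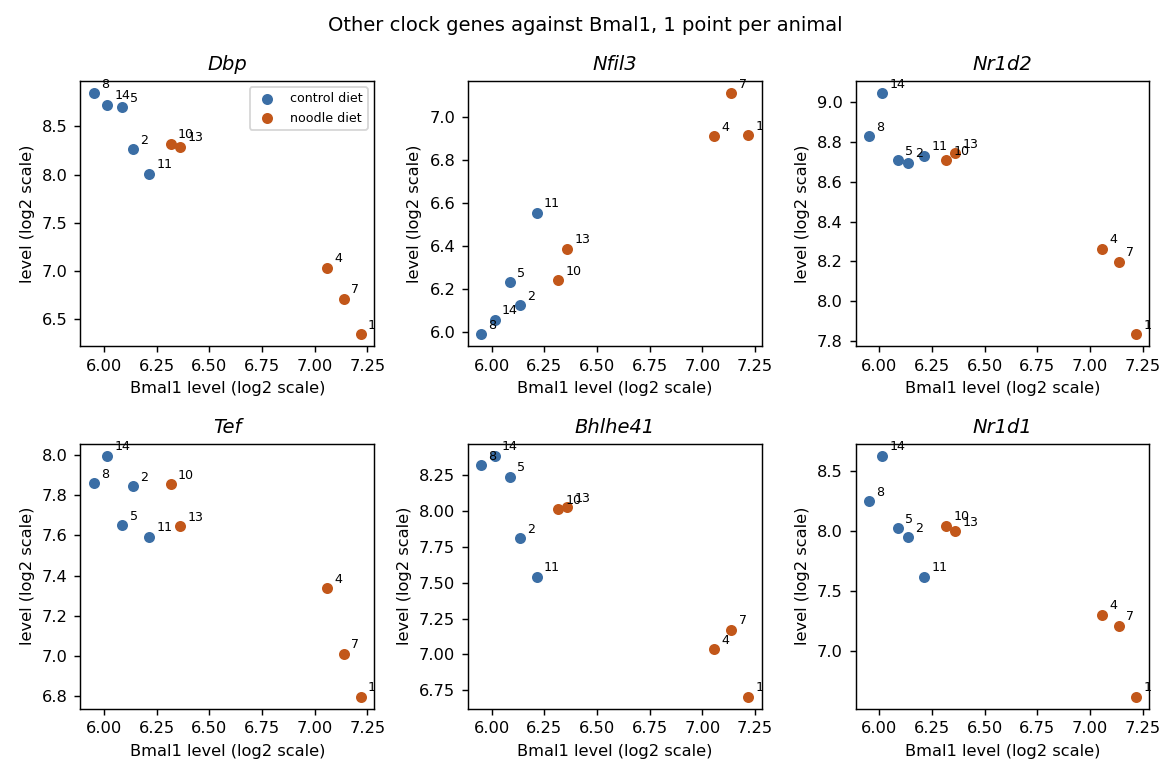
Level of 6 further clock genes against that of Bmal1 (both on the deposited log2 scale), 1 point per animal, coloured by diet and labelled with the animal number. Noodle animals 1, 4 and 7, with Bmal1 from 7.06 to 7.22, lie apart from the other 7 animals in each panel, and noodle animals 10 and 13 lie beside the controls.

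Across the 1780 genes with a variable probe set that are no members here, those most like Bmal1 over the 10 arrays were Nfil3 (r = 0.95), Dtx4 (0.92), Adam19 (0.91), Adamts4 (0.83) and Ucp3 (0.81). For deviations within diet the values were 0.91, 0.80, 0.94, 0.80 and 0.48. Adam19, a membrane metalloprotease gene, stood at 8.15, 8.20, 8.18, 7.92 and 7.97 in noodle animals 1, 4, 7, 10 and 13 and at 8.02, 7.98, 7.88, 8.02 and 7.95 in controls 2, 5, 8, 11 and 14. It thus followed Bmal1 within the noodle group, while its noodle animals 10 and 13 lay within the control range.

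Most opposed to Bmal1 were Dbp (r = -0.98), Nr1d2 (-0.94), Tef (-0.93), Bhlhe41 (-0.92) and the gap junction gene Gja1 (-0.92), with -0.98, -0.91, -0.91, -0.92 and -0.76 within diet. Most like Per3 were Tef (0.96), Dbp (0.94), Nr1d2 (0.94), Nr1d1 (0.90) and Gpr146 (0.89), and most opposed to it Hsph1 (-0.90), Nfil3 (-0.88), Dtx4 (-0.85), Ucp3 (-0.80) and Adk (-0.80). Of the 5 genes most opposed to Bmal1, 3 were thus among the 5 most like Per3. All points share arrays and diets, so r is given as a measure of likeness with no test.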

How the data were processed

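Per the labels, 100 ng of total RNA was made into biotin-labelled cRNA and hybridized to 1 rat expression array per animal. The authors' deposited values, 1 for each probe set on each array, were taken as log2 from its range of 4.73 to 13.9. The sources used here name no log base, background correction, summarisation or normalization. Of 31099 probe sets 57 array controls were left out. Probe sets were named by the platform annotation (20826 with 1 symbol, 436 with several, 9780 with none).

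All 31042 probe sets were fitted with limma 3.58.1 in R 4.3.3 (noodle minus control, two-sided, Benjamini-Hochberg over all, threshold 0.05). For the clock list the probe set with the highest mean stood for a gene. Deviations from diet means were correlated with exact permutation tests within diets. Both were also run on simulated data in which the diets had equal spread, unlike most of the variable members here, so no support is drawn from those runs. Alternatives covered scaling, filters, variance prior, array weights, covariates and leaving out each animal. Genes named besides the members were the 6 variable clock-list genes with the smallest p and the 5 most like and most opposed to Bmal1 and to Per3 over the 10 arrays, with the remaining clock genes, Bhlhe40 among them, named after their values were seen. The members, lists and rules were chosen with earlier results of these data known, among them the low Bmal1 of noodle animals 10 and 13. Each animal is 1 sample, and precision is limited by 5 arrays per group.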

Additional observations from a re-analysis of the deposited data

Results flagged for a closer look

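Over 32 groups of 5 animals (16 clock genes with a variable probe set, each diet apart), 1 held an animal far from the other 4, where about 1 in 20, or 1.6, would do so by chance. It was Cry1 in control animal 11, at 6.14 against 6.19 to 6.20 in the other controls, a gap of 0.77 of the group's range. That range is only 0.063 log2 units.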

How the results depend on the processing

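The 6 variable members kept the sign of their diet difference in all 18 alternatives, and 0 passed in any. Bmal1 ranged from 0.58 to 0.86, Npas2 from 0.51 to 0.76, Cry1 from 0.28 to 0.40, Per3 from -0.71 to -0.42 and Per2 from -0.58 to -0.37. The count of members and of other clock genes past the threshold was 0 in every setting run. That of all probe sets was 0 to 1 when single animals were left out, with the 1 without control animal 14. The number of gene pairs that passed for co-variation within diet, 3 as reported, was 14 with the animal number as a covariate, 11 with the 3-prime to 5-prime difference as a covariate, 15 when the diet difference was not removed and 1 with Spearman correlation. It was 0 to 5 when single animals were left out and 3 under quantile normalization and centring. The permutation is approximate with a covariate. The cause of these shifts was not tested, apart from the undivided values, which hold the diet difference by construction. All 15 pairs kept their sign in every setting run. Averaging variable probe sets changed nothing, as each gene has 1. No paired analysis was possible because no animal number occurs in both diets, and no label ties a noodle animal to its pair-fed control.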

Other observations

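Control animal 11 was also at an end of the control range in several clock genes outside the core loop, though the rule above flagged it only for Cry1. Among the 5 controls it held the lowest Dbp (8.01), Tef (7.59), Bhlhe41 (7.54), Nr1d1 (7.62), Rora (7.01) and Nampt (7.91), and the highest Nfil3 (6.56, against 5.99 to 6.23 in the others). Some margins were small: the next control stood at 7.65 for Tef, 7.06 for Rora and 7.96 for Nampt. For Bhlhe40 (7.05) and Gsk3b (6.68) control animal 11 was next to the lowest, and for Nr1d2 it was in the middle, at 8.73. Control animal 14 held the highest Nr1d1 (8.63), Nr1d2 (9.04), Tef and Bhlhe41 (8.39) of the controls, along with the highest Per1 (7.41) and Per3 (7.71). These genes were singled out after their values were seen, and no test was run on them.

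Bhlhe40, an E-box repressor like its relative Bhlhe41, differed from it in noodle animal 13. It stood at 6.66, 6.58, 6.65, 7.23 and 7.93 in noodle animals 1, 4, 7, 10 and 13, and at 6.82, 7.08, 7.64, 7.05 and 7.57 in controls 2, 5, 8, 11 and 14. Animals 1, 4 and 7 were below every control, as for Bhlhe41, but noodle animal 13 was above every control.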
